A study of Homo sapiens with 16 samples.

Results

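The regions described here are bases of the human mitochondrial chromosome (chrM). They were listed as methylated adenosine sites by m6A-eCLIP in 3 states of a glioma cell line. They were taken as every chrM entry, on both strands, of the 8 lists of called bases, 1 list per library. Each base was assigned to a mitochondrial gene by its position and strand. No chrM sequence was used, so whether each called base is an adenosine was not checked. Of 452349 bases called in at least 1 library, 255 lay on chrM. Of these, 223 were on the strand of the heavy-strand transcripts and 32 on that of the light-strand transcripts. The reproducible peaks deposited for each group were searched in the same way and held 6 chrM peaks, all of them in the list of the inhibitor-treated cells.

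The human mitochondrial genome is a small circle that is transcribed from both strands into long precursors, which are cut into ribosomal RNAs, transfer RNAs and messenger RNAs inside the organelle. The heavy-strand transcript carries nearly all of the genes, while the light-strand transcript carries ND6 and several transfer RNAs and begins in the noncoding control region, where it also gives a short polyadenylated RNA called 7S RNA. All mitochondrial mRNAs code for membrane subunits of the respiratory chain or ATP synthase. N6-methyladenosine (m6A) of mRNA is written mainly in the nucleus by METTL3 with METTL14, whereas the known base modifications of mitochondrial RNA are made by other, organelle-targeted enzymes.

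The study compared U87-R treated with 50 µM STM2457, a METTL3 inhibitor, for 96 hours (2 libraries), U87-R (3 libraries) and U87 MG, an established human glioma line (3 libraries). U87-R is the derivative of U87 MG that is resistant to temozolomide, an alkylating drug, and both U87-R groups were grown with 50 µM temozolomide in the medium, so that resistance and the drug cannot be told apart. The 2 groups without STM2457 were labelled as DMSO controls. In the assay, polyA-selected RNA was fragmented, bound and crosslinked to an m6A antibody and sequenced, and the called base carries a score. The 8 matched input libraries were not analysed here, so methylation and RNA abundance are not separated in any value below. Fewer mitochondria or cells and less RNA per cell cannot be told apart, and nothing states whether the replicates were separate cultures, so a p-value covers no more than the scatter among these 8 libraries, which may be technical.

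The lists held 105900 and 110875 called bases in the STM2457 libraries, 149477 to 192697 in U87-R and 150135 to 182556 in U87. U87-R replicate 2 was the lowest library for the number, share, median score and sum of scores of chrM bases. Values without it are given for the number, for the sum and for the genes it moves. Of 9 glioma line markers, 6 had a called base (VIM, NES, CD44, TNC, FN1 and OLIG2), with summed scores of 3064 to 3084 in the STM2457 libraries, 7217 to 8242 in U87-R and 6514 to 7205 in U87. No base was given to GFAP, S100B or SOX2. Among 6 markers of other cells only PECAM1 had called bases, with sums of 9.97 to 11.7 in the STM2457 libraries, 8.45 to 49.1 in U87-R and 2.77 to 10.9 in U87, and PTPRC, CD14, EPCAM, RBFOX3 and MBP had none.

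The number of chrM bases overlapped between STM2457 and U87-R and between U87-R and U87, while calls elsewhere were fewer with the inhibitor, so that chrM had a larger share of all calls. There were 137 and 151 called chrM bases in the STM2457 libraries, 160, 98 and 139 in U87-R and 106, 126 and 127 in U87. Neither comparison separated the groups (exact permutation p = 0.9 for STM2457 against U87-R and p = 0.5 for U87-R against U87, two-sided), although both STM2457 libraries lay above all U87 libraries. The difference between STM2457 and U87-R was 11.7 bases with all libraries and -5.5 bases without U87-R replicate 2.

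As a share of all called bases, chrM made up 0.129% and 0.136% in the STM2457 libraries, against 0.0830%, 0.0656% and 0.0815% in U87-R. Both treated libraries lay above every U87-R library, with a ratio of means of 1.73 (two-sided exact permutation p = 0.1, which is the lowest p that 2 against 3 libraries allow). The U87 libraries had 0.0706%, 0.0737% and 0.0696%, and the U87-R shares overlapped them (exact permutation p = 0.4). In the share it was mainly the denominator that moved, since the treated libraries had fewer called bases in all. The mean number of chrM bases was 144 in STM2457 and 132 in U87-R, a ratio of 1.09, and the groups overlapped.

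The scores of the chrM bases were higher after treatment. The median score of the called chrM bases was 28.5 and 28.9 in the STM2457 libraries, 23.7, 17.5 and 23.1 in U87-R and 20.6, 21.2 and 20.8 in U87. The STM2457 and U87-R libraries did not overlap (exact permutation p = 0.1, the lowest this design allows). At the 60 chrM bases present in every one of the 8 lists, the median averaged 34.4 ± 0.647 in STM2457 (SD, n = 2), 25.8 ± 4.28 in U87-R and 24.1 ± 1.38 in U87 (SD, n = 3 each). The STM2457 and U87-R values did not overlap (exact permutation p = 0.1, the lowest this design allows). At the 30779 bases of other chromosomes listed in every library it averaged 32.4 ± 0.994 in STM2457 (SD, n = 2) and 42.7 ± 5.19 in U87-R (SD, n = 3; exact permutation p = 0.2), so the treated libraries were the higher ones on chrM and the lower ones elsewhere.

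Summed over chrM, the scores came to 4851 and 5608 in the STM2457 libraries, 4772, 2435 and 4304 in U87-R and 3008, 3708 and 3657 in U87. The treated libraries lay above all U87-R libraries, by 1392 on average (exact permutation p = 0.2), and by 691 without U87-R replicate 2. As a share of the sum of scores over all chromosomes, chrM held 0.255% ± 0.0197 in STM2457 (SD, n = 2) and 0.121% ± 0.0278 in U87-R (SD, n = 3; exact permutation p = 0.1). U87-R and U87 did not differ beyond their spread in either measure (exact permutation p = 0.6 and p = 1).

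**Figure D1:**
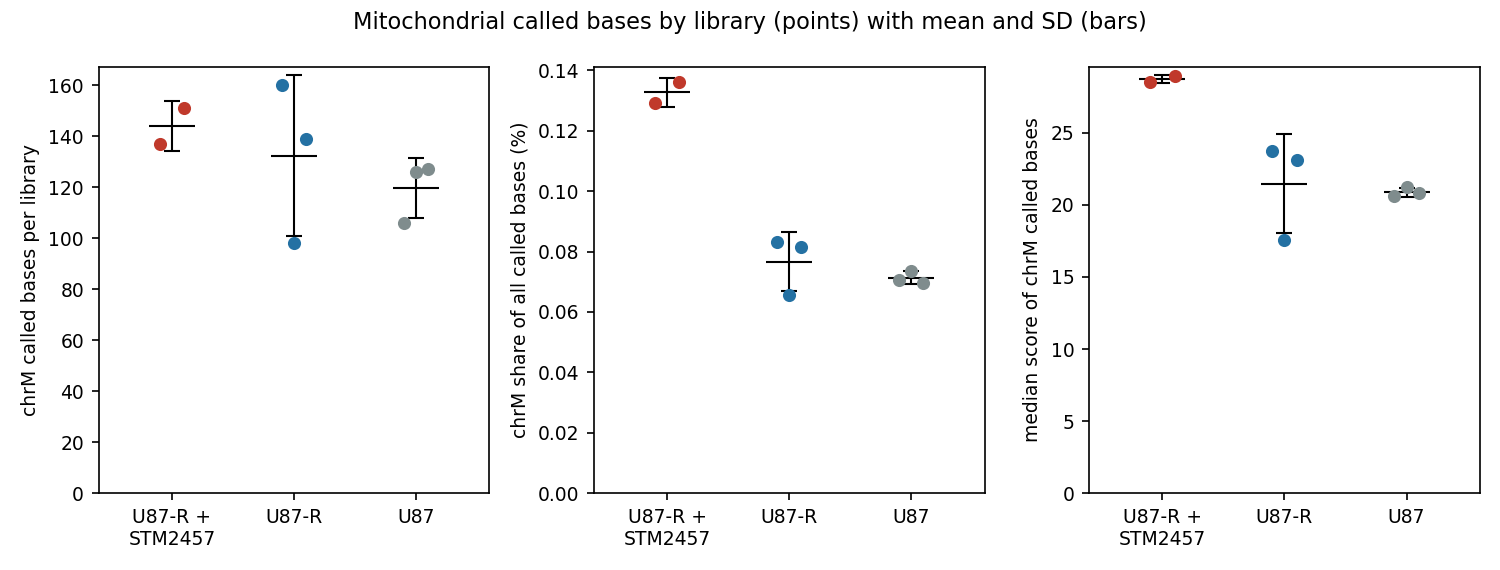
Number of called chrM bases, their share of all called bases in percent, and their median score, with 1 point per library and bars for the mean and SD of U87-R treated with STM2457 (n = 2), U87-R (n = 3) and U87 (n = 3). The numbers of the treated libraries overlap those of U87-R and lie above those of U87, while the share (0.129% and 0.136%) and the median score (28.5 and 28.9) of the treated libraries lie above all others.

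Many chrM bases were called in library after library. Of the 255 bases, 60 (23.5%) were called in all 8 libraries and 67 (26.3%) in a single library, whereas of the bases on other chromosomes 6.81% were called in all 8 and 48.2% in 1. For 2 libraries of the same group, the bases called in both made up 55.4% to 71.8% of the chrM bases called in either, against 40.6% to 42.9% on other chromosomes. Between an STM2457 and a U87-R library this was 44.2% to 53.1% on chrM, against 25.0% to 27.8% elsewhere. The 255 bases formed 182 runs of adjacent bases, and neighbours often carried the same score, so they are not independent of each other.

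The strongest chrM bases were not in a gene but in the light-strand transcript of the control region. Base 304 on the light-strand side had scores of 708 and 708 in the STM2457 libraries, 708, 512 and 706 in U87-R, and 567, 637 and 594 in U87. No base of any chromosome scored higher in 5 of the 8 libraries, and 2 or fewer did in the others. Its score stood at the highest value of the deposited lists (708) in U87-R replicate 1 and in both STM2457 libraries, so a difference there cannot show.

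Another 4 light-strand bases of the control region ranked next on chrM by mean score, which was 303 at base 303, 153 at base 397, 74.7 at base 288 and 52.5 at base 287. Base 397 had 198 and 326 in the STM2457 libraries and 105, 62.5 and 111 in U87-R, a log2 change of 1.49 ± 0.36 (SE; limma adjusted p = 0.0212 over all bases tested). Those groups did not overlap, and the U87 values of 95.7, 142 and 186 all lay below the treated ones. The log2 change at base 397 was 1.23 (limma adjusted p = 0.0513) without U87-R replicate 2, and it stayed at 1.49 with only these 2 groups in the fit (limma adjusted p = 0.0726). It was 1.84 without STM2457 replicate 1 (limma adjusted p = 0.0578) and 1.13 without STM2457 replicate 2 (limma adjusted p = 0.218), where the lone treated library is assumed to vary like the other groups. At base 288 the STM2457 libraries had 110 and 86.1 and the U87-R libraries 83.4, 74.6 and 105, which overlapped (limma adjusted p = 0.532).

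Base 288 also had the lowest adjusted p of all chrM bases between the 2 untreated lines, with the U87-R values above against 44.3, 47.4 and 46.6 in U87. Every U87-R library was higher (log2 change 0.90 ± 0.16, SE), but the limma adjusted p of 0.114 did not pass 0.05. Base 287, its neighbour, varied within the treated group, with 13.4 and 74.0 in the STM2457 libraries, 56.7, 58.2 and 66.9 in U87-R and 42.2, 32.9 and 75.9 in U87.

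In all, 13 light-strand bases of the control region were called, 6 of them in every library, and their scores summed to 1493 and 1636 in the STM2457 libraries, 1316, 938 and 1332 in U87-R and 1051, 1214 and 1293 in U87. These bases held 30.0% ± 1.14 of the chrM sum in STM2457 (SD, n = 2), 32.4% ± 5.62 in U87-R and 34.3% ± 1.40 in U87 (SD, n = 3 each). Both treated sums exceeded all U87-R sums (exact permutation p = 0.1, the lowest this design allows), with a log2 change of 0.40 ± 0.18 (SE) that missed the threshold in the fit over all genes (limma adjusted p = 0.0901).

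**Figure D2:**
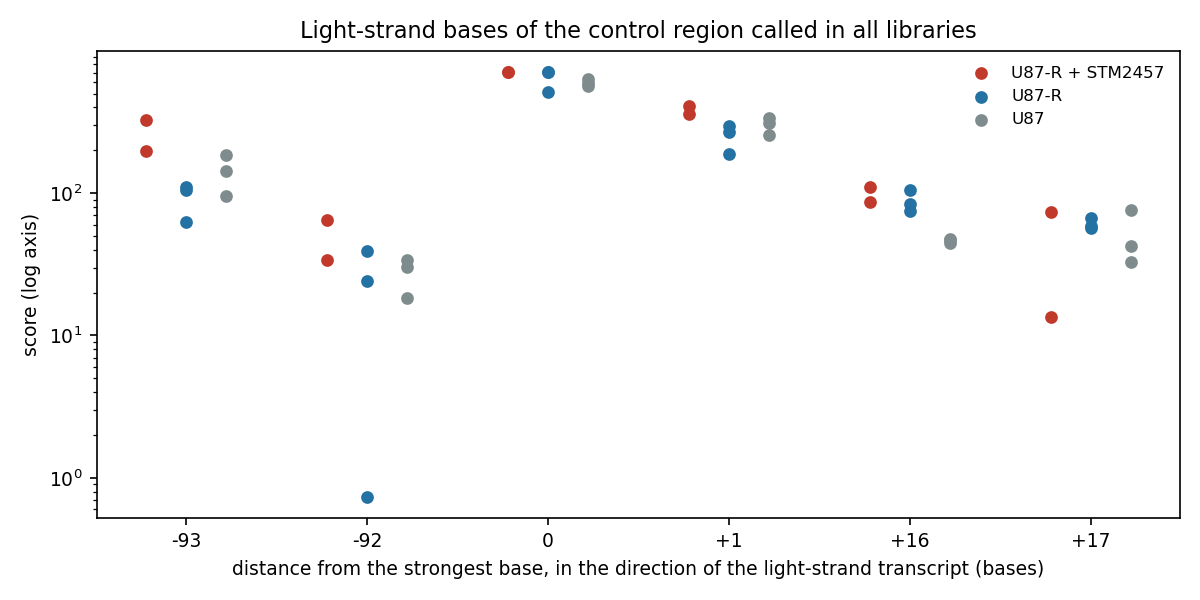
Scores (log axis) of the 6 light-strand bases of the control region called in every library, placed by their distance in bases from the strongest base along the light-strand transcript, with 1 point per library for U87-R treated with STM2457, U87-R and U87. The strongest base reaches 708 in both treated libraries, and the base 93 upstream of it is higher in both treated libraries (198 and 326) than in the U87-R libraries (62.5 to 111).

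Outside the control region few light-strand bases were called in the untreated lines. Light-strand bases elsewhere numbered 11 and 9 in the STM2457 libraries, 2, 0 and 0 in U87-R and 0, 0 and 0 in U87. The treated libraries did not overlap with either untreated line (exact permutation p = 0.1 for STM2457 against U87-R, the lowest this design allows). Of these 19 bases 17 were called only in STM2457 libraries, but just 2 of them were called in both, and 4 reached a score of 10.

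The base shared by both treated libraries with the highest scores was 9761, opposite COX3, which had 21.5 and 24.3 and was not listed in any untreated library. Base 12444, opposite ND5, had 7.36 and 1.81 and was likewise not listed elsewhere. ND6, the complex I subunit that is the only protein gene of the light-strand transcript, had 4 called bases, all in STM2457 replicate 1 and summing to 20.3, and none in the other 7 libraries, so it did not enter the test.

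The light-strand share of the chrM bases was 13.9% and 10.6% in the STM2457 libraries, against 7.50%, 7.14% and 5.04% in U87-R (exact permutation p = 0.1). It was 6.60%, 5.56% and 7.87% in U87, which overlapped U87-R (exact permutation p = 1). With scores of at least 10 only, the treated share exceeded that of U87-R by 0.931 percentage points in place of 5.67 (exact permutation p = 0.6).

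On the heavy-strand transcript the calls followed the messenger RNAs. All 13 protein-coding genes, counting ND6 of the light-strand transcript, had at least 1 called base, 10 of them a base called in every library. Of the 2 ribosomal RNAs, RNR2 (16S rRNA) had a single base, 1936 at position 266 of the gene, with a score of 0.387 in STM2457 replicate 2 and 3.50 in U87-R replicate 3, and RNR1 (12S rRNA) had none. Of the 22 transfer RNAs only TRNK, the lysine tRNA, had called bases, and these were the last 2 of the gene, bases 8363 and 8364, directly before the start of ATP8. So neither the N6-dimethylated adenosines known in 12S rRNA nor the N1-methyladenosine known in 16S rRNA was among the called bases.

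Of the 37 mitochondrial genes, 12 had a sum of 10 or more in 2 or more libraries and were tested, 11 of them protein-coding. ND4L, ND6 and RNR2 had called bases but did not pass, and the other 22 genes had none.

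Between STM2457 and U87-R, 2 of the 12 genes were called higher and 0 lower, whereas 5.61% of all genes and regions tested were called higher and 38.9% lower (limma, adjusted p under 0.05). Of the 12, 11 had a positive change, and their median log2 change was 0.66, against -0.70 over everything tested. Without U87-R replicate 2 the changes of COX1 (-0.16), ATP6 (-0.27) and ND4 (-0.14) turned negative and that of ATP8 stayed so (-0.28). The rest stayed positive, and the median over everything tested was then -0.83. With each library centred on its median, 7 of the 12 were called higher, against 14.8% higher and 24.8% lower over everything tested. With libraries scaled to their total sum of scores it was also 7, against 15.8% higher and 23.9% lower. These settings moved the median over everything tested to -0.14 and -0.11.

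The 2 genes called were COX2 and COX3, which code for subunits of the catalytic core of cytochrome c oxidase, complex IV of the respiratory chain. The sums of scores of COX3 were 315 and 388 in the STM2457 libraries, 199, 85.1 and 160 in U87-R and 83.9, 108 and 101 in U87. The sums of COX2 were 141 and 165 in the STM2457 libraries, 69.7, 33.1 and 66.7 in U87-R and 36.3, 56.7 and 40.4 in U87. For both genes every treated library lay above every untreated one. These sums include bases listed in both STM2457 libraries and in no other, 10 in COX3 and 3 in COX2. In COX3 the bases listed only with the inhibitor made up the larger part of both treated sums. Without them those sums would lie within the U87-R range, so the COX3 call rests on gains of listing.

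COX3 rose by a log2 change of 1.32 ± 0.36 (SE; limma adjusted p = 0.0152) and COX2 by 1.49 ± 0.47 (SE; limma adjusted p = 0.0281). Without U87-R replicate 2 the changes were 0.97 (limma adjusted p = 0.0159) for COX3 and 1.15 (limma adjusted p = 0.0474) for COX2. Without STM2457 replicate 1 or 2 the changes stayed at 1.47 and 1.17 for COX3 and at 1.60 and 1.38 for COX2, but neither gene passed. The limma adjusted p was then 0.0696 and 0.124 for COX3 and 0.1 and 0.140 for COX2, with a lone treated library that is assumed to vary like the other groups. Counting only bases with a score of at least 10, the change of COX2 was 1.72 and did not pass (limma adjusted p = 0.0717). COX1, the largest subunit of the same complex, had sums of 70.5 and 112 in STM2457, 101, 33.8 and 98.5 in U87-R and 49.7, 53.2 and 105 in U87, which overlapped (log2 change 0.35 ± 0.58, SE; limma adjusted p = 0.655).

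The complex I genes did not pass the test, although ND1, ND3 and ND5 were higher in both treated libraries than in any U87-R library. ND5 had 311 and 298 in the STM2457 libraries, 218, 56.8 and 205 in U87-R and 92.7, 132 and 120 in U87 (log2 change 1.15 ± 0.52, SE, between STM2457 and U87-R; limma adjusted p = 0.0997). ND1 had 394 and 455 in the STM2457 libraries, 375, 91.0 and 289 in U87-R and 236, 241 and 291 in U87 (log2 change 0.98 ± 0.49, SE; limma adjusted p = 0.134). In both genes U87-R replicate 2 was far below the other U87-R libraries, and without it the changes were 0.53 for ND5 and 0.36 for ND1 (limma adjusted p = 0.112 and 0.178). Without U87-R replicate 1 the change of ND1 was 1.38 and passed (limma adjusted p = 0.0460).

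ND3 averaged 192 ± 8.46 in STM2457 (SD, n = 2) and 134 ± 51.1 in U87-R (SD, n = 3), with a log2 change of 0.60 ± 0.38 (SE). ND2 averaged 497 ± 180 in STM2457 and 326 ± 99.3 in U87-R, a log2 change of 0.61 ± 0.34 (SE). ND4, the gene with the most called bases on chrM (29), averaged 598 ± 67.4 in STM2457 and 561 ± 203 in U87-R, a log2 change of 0.16 ± 0.28 (SE). None of the 3 passed, with limma adjusted p of 0.230, 0.175 and 0.670. Without U87-R replicate 2 the change of ND3 was 0.23 and that of ND2 0.33 (limma adjusted p = 0.527 and 0.404). ND4L, read from the same mRNA as ND4, had called bases in U87-R replicate 1 (sum 24.7) and U87 replicate 2 (sum 4.06) and in no STM2457 library.

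CYTB, the mitochondrially encoded subunit of complex III, averaged 300 ± 23.4 in STM2457 (SD, n = 2), 223 ± 145 in U87-R and 137 ± 51.4 in U87 (SD, n = 3 each), and its treated libraries lay within the U87-R range (limma adjusted p = 0.365). TRNK averaged 64.9 ± 4.26 in STM2457 and 36.4 ± 18.1 in U87-R without overlap (limma adjusted p = 0.286). Without U87-R replicate 2 the log2 change of CYTB was 0.017 in place of 0.72, and that of TRNK 0.46 in place of 0.97.

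Neither of the ATP synthase genes passed. ATP8 and ATP6 lie on a shared mRNA and overlap. ATP8 had sums of 152 and 148 in the STM2457 libraries, 184, 151 and 180 in U87-R and 162, 179 and 176 in U87, with a log2 change of -0.19 ± 0.22 (SE; limma adjusted p = 0.522) that is positive (0.37 and 0.41) when libraries are centred or scaled. ATP6 averaged 233 ± 7.15 in STM2457 (SD, n = 2) and 239 ± 75.2 in U87-R (SD, n = 3; limma adjusted p = 0.963).

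In all, 6 of the 12 genes (COX2, COX3, ND1, ND3, ND5 and TRNK) were higher in both STM2457 libraries than in every U87-R library, and 0 were lower in both. Over all genes tested, 16.5% were higher and 50.6% lower without overlap.

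**Figure D3:**
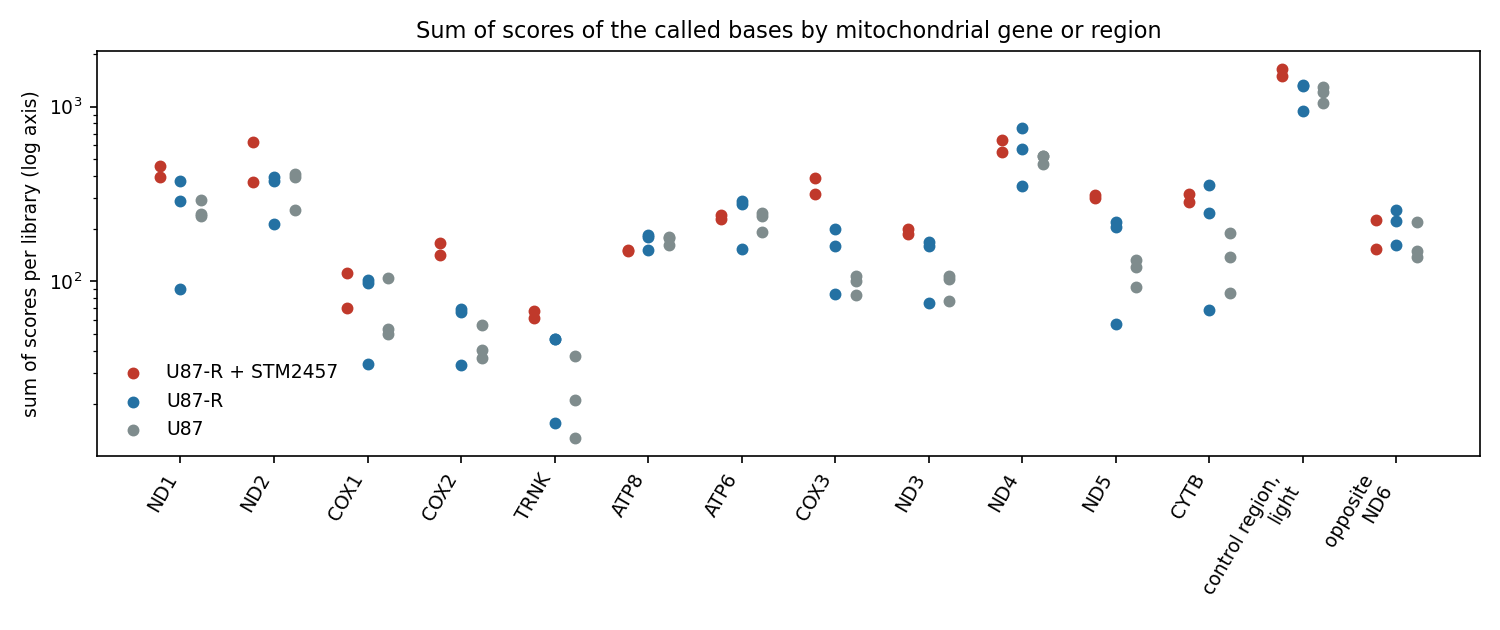
Sum of scores per library (log axis) for the 12 tested mitochondrial genes and for 2 regions without a gene on the strand called, the light strand of the control region and the heavy-strand bases opposite ND6, with U87-R treated with STM2457 in red, U87-R in blue and U87 in grey. For COX2 and COX3 both treated libraries lie above all others, and the lowest U87-R point of each gene is replicate 2.

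**Figure D4:**
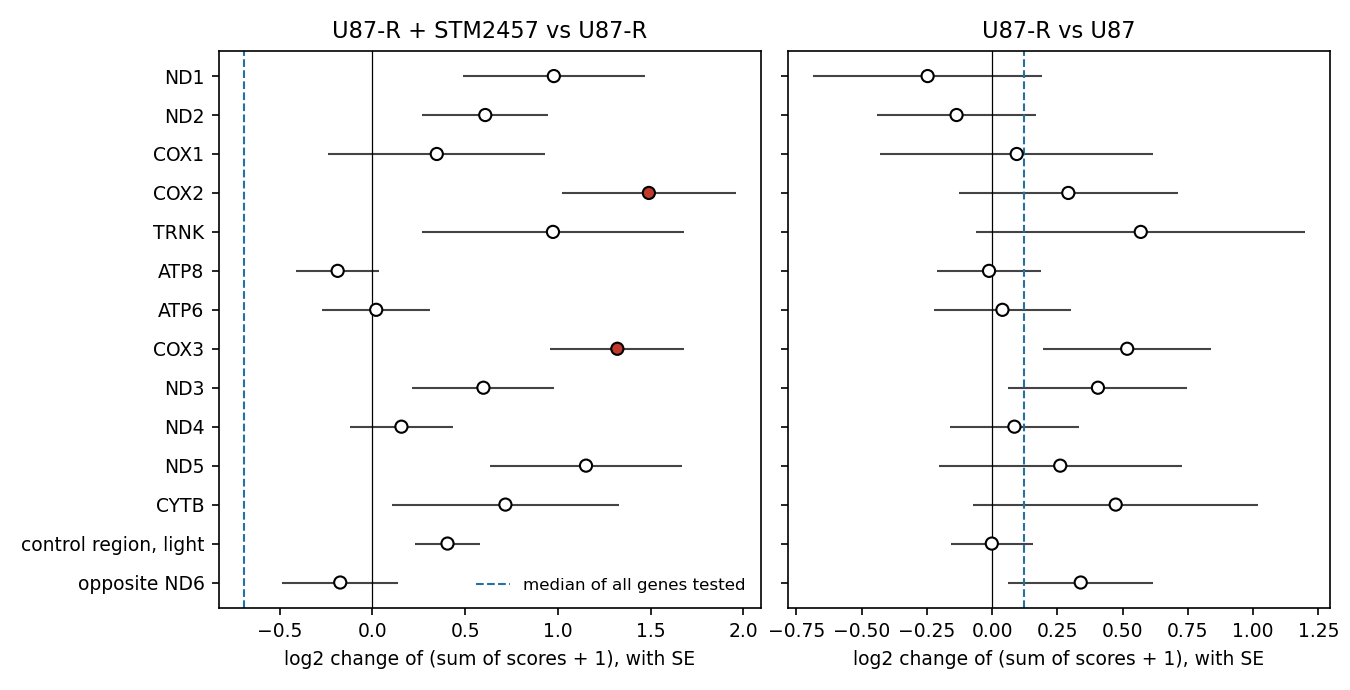
Log2 change of the sum of scores plus 1, with its SE, for the same genes and regions in STM2457-treated U87-R against U87-R and in U87-R against U87, with genes that passed the limma test filled and the median over everything tested as a dashed line. In the treatment comparison all points lie to the right of the dashed line at -0.70, and only COX2 and COX3 are filled.

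The heavy-strand transcript also carried calls opposite ND6, in the stretch that follows ND5 in the ND5 messenger RNA. There were 16 such bases, 5 of them in every library, with sums of 153 and 226 in the STM2457 libraries, 257, 162 and 222 in U87-R and 149, 220 and 139 in U87. The groups overlapped (limma adjusted p = 0.675, log2 change -0.17 ± 0.31, SE, and 0.38 to 0.43 when libraries are centred or scaled). The strongest of them, base 14515, had 57.7 and 65.9 in the STM2457 libraries, 47.7, 33.5 and 43.8 in U87-R and 38.1, 42.6 and 39.0 in U87, with no overlap between STM2457 and U87-R but a limma adjusted p of 0.0872.

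Per length, ATP8 was the protein-coding gene with the highest sum of scores in all 3 groups, with 725 per kb in STM2457, 830 in U87-R and 834 in U87. ND3 followed in STM2457 (555 per kb), ND4 in U87-R (407 per kb) and U87 (366 per kb). Among genes tested, COX1 had the lowest, with 59.3 per kb in STM2457, 50.5 in U87-R and 45.0 in U87. COX3 stood at 448 per kb in STM2457, 188 in U87-R and 124 in U87.

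Single bases were tested over all chromosomes, and 170 of the 255 chrM bases, those listed in 2 or more libraries of any group, entered the test. Between STM2457 and U87-R, 27 were called higher, 15.9% of those tested, against 6.65% over all bases, and 7 were called lower, 4.12% against 16.9%. Of the 27, 22 had no call in any U87-R library, and all 7 lower bases had no call in an STM2457 library, so most calls are gains or losses of listing and not graded changes. Of the 27, 26 met the condition for entering the test only through the STM2457 libraries, where they are high, so their number is largely fixed by that condition and nothing is read from it. Such bases entered the fit at 0, and no fold change is given for them. With libraries centred on their median, 118 chrM bases were called higher and 2 lower, against 36.3% higher and 4.7% lower over all bases, whose median log2 change was then 1.62. With libraries scaled to their total, 71 were called higher and 7 lower, against 9.57% and 14.2% over all bases.

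Where graded change could be seen, it was small and mostly upward. Of the 60 chrM bases called in all 8 libraries, 56 (93.3%) had a higher mean in STM2457 than in U87-R, with a median log2 difference of 0.46, and 1, base 397, passed the test. Of the 30779 such bases on other chromosomes 42.3% were higher, with a median of -0.28.

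The highest base of most genes belonged to this group. Base 10883 of ND4 had 57.1 and 55.5 in the STM2457 libraries, 46.8, 24.0 and 42.3 in U87-R and 37.4, 45.1 and 38.6 in U87. Base 4702 of ND2 had 61.3 and 62.4 in the STM2457 libraries, 39.1, 21.0 and 34.7 in U87-R and 23.1, 35.0 and 28.1 in U87. Both were higher in each treated library than in any untreated one, with log2 changes of 0.62 ± 0.29 and 0.99 ± 0.31 (SE) and limma adjusted p of 0.187 and 0.0595. The log2 changes of the highest bases of ND1 (3617), COX2 (7838), TRNK (8363), ATP6 (8912), COX3 (9541), ND3 (10252) and CYTB (15512) lay between 0.19 and 0.95, and none passed. Base 10909, the second of ND4, changed by 0.35 ± 0.24 (SE; limma adjusted p = 0.335).

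Position 1374 of ND5, known as an N1-methyladenosine site of that mRNA, was base 13710 and was called in all 8 libraries as the highest base of the gene. It had 29.1 and 28.3 in the STM2457 libraries, 23.0, 18.2 and 21.0 in U87-R and 20.2, 22.6 and 22.3 in U87. Both treated values lay above all others (log2 change 0.46 ± 0.27, SE; limma adjusted p = 0.266), and U87-R overlapped U87 (log2 change -0.06 ± 0.24, SE; limma adjusted p = 0.974).

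Some chrM bases were called in both STM2457 libraries and in no other. They numbered 23, which was 9.02% of all chrM bases against 1.67% of the bases elsewhere. COX3 held 10 of them, COX1, COX2 and CYTB 3 each, and ND4 and ND5 1 each, with 2 on the light strand. Several were adjacent bases with the same score, so they are not independent. These bases were picked by their listing, so nothing is read from their number or place. There were 4 bases (1.57%, against 4.31% elsewhere) that were called in all 6 untreated libraries and in no STM2457 library.

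In COX3 no base beyond position 417 of the gene was called in an untreated library. In this stretch, which was defined after the values were seen, 9 bases were called in STM2457 replicate 1 and 12 in replicate 2, at positions 516 to 732. Bases 9722, 9723 and 9725 had scores of 28.5 in replicate 1 and 25.2 in replicate 2, and bases 9798 and 9799 had 20.5 and 23.9. Base 9411, at position 205, had 18.4 and 18.9 and was also listed only with the inhibitor.

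In COX2 the last base called in an untreated library was at position 385, with a score of 0.875 in U87-R replicate 3 alone. Beyond this boundary, which was also set after the values were seen, 3 bases were called in both treated libraries. Bases 8134 and 8135 had 22.7 and 21.7 there and base 8047 had 17.6 and 18.0, and none was listed in an untreated library. Base 12522 of ND5 (20.0 and 20.9) and base 15310 of CYTB (18.6 and 18.9) were also listed with the inhibitor alone.

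The clearest loss of listing was at ATP8. Base 8448 was not listed in either STM2457 library, while it had 54.1, 41.9 and 55.1 in U87-R and 42.8, 53.3 and 45.3 in U87 (limma adjusted p = 4.16e-05 for STM2457 against U87-R). Base 8450, 2 positions on, had 55.2 and 53.6 in the STM2457 libraries, 48.1, 41.9 and 47.0 in U87-R and 41.7, 43.8 and 39.7 in U87, and base 8451 had almost the same scores. So a single position of this cluster was no longer listed, while its neighbours kept or exceeded their untreated scores (log2 change of both 0.25 ± 0.16, SE; limma adjusted p = 0.298 and 0.294). Whether the call moved within the cluster was not tested.

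**Figure D5:**
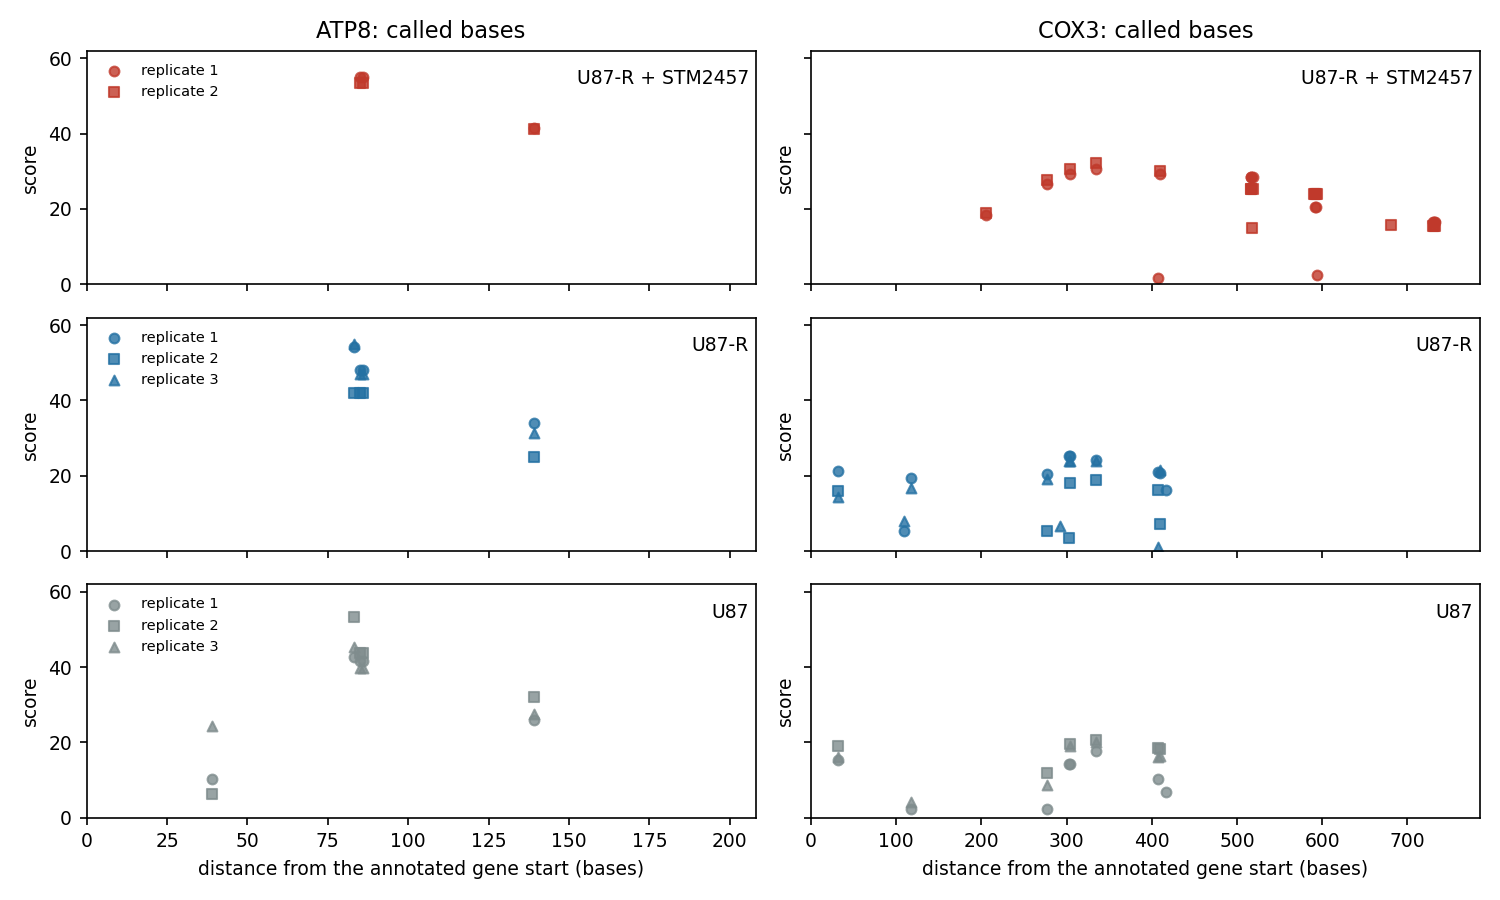
Scores of the called bases of ATP8 and COX3 by distance from the annotated start of the gene, in rows for U87-R treated with STM2457, U87-R and U87, with 1 symbol per replicate. In ATP8 the base at position 83 is missing from the top row while those at 85 and 86 remain, and in COX3 the bases beyond position 417 appear only in the top row.

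Base 6415 of COX1 was also unlisted in both STM2457 libraries and had 35.4, 12.4 and 36.2 in U87-R and 24.9, 26.7 and 33.5 in U87 (limma adjusted p = 0.000935). Nearby calls remained, with 32.2 at base 6407 in STM2457 replicate 1 and 32.3 at base 6413 in STM2457 replicate 2. Base 6407 was unlisted in STM2457 replicate 2 and base 6413 in STM2457 replicate 1. Base 9238 of COX3 had 21.2, 15.9 and 14.4 in U87-R and 15.5, 19.0 and 16.2 in U87, and base 11010 of ND4 had 28.9, 8.06 and 27.2 in U87-R and 19.2, 18.9 and 24.5 in U87, both unlisted with STM2457. These were the bases called in all untreated libraries and in no treated one. Base 9048 of ATP6 and bases 14354 and 14548 opposite ND6 were called in all U87-R libraries, in no STM2457 library and in 2, 2 and 0 of the U87 libraries.

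Retention was set against the rest of the transcriptome by a fixed score. Of 63 chrM bases that scored 10 or more in every U87-R library, 53 (84.1%) also did in both STM2457 libraries and 6 (9.52%) were listed in neither. Of 46423 such bases on other chromosomes 46.5% did in both and 26.6% were listed in neither.

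Between U87-R and U87, 0 of the 12 mitochondrial genes were called, against 0.902% called higher and 0.264% lower over everything tested (limma; 0 of the 12 also had an unadjusted p under 0.05). Their log2 changes lay between -0.25 (ND1) and 0.57 (TRNK), with a median of 0.18 against 0.12 over everything tested, and the lowest limma adjusted p was 0.588, for COX3. No gene was higher or lower without overlap, against 10.9% and 5.07% of all genes. Of the 170 single bases 0 were called by limma, against 0.00053% called higher and 0% lower over all bases, and 12 had an unadjusted p under 0.05. Without U87-R replicate 2, 7 bases were called, all higher in U87-R, against 1.8% called higher and 0.306% lower over all bases.

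The deposited lists of reproducible sites and peaks hold little of chrM. In the authors' deposited tables, 0 of 12791 STM2457 sites, 0 of 35207 U87-R sites and 0 of 33396 U87 sites were on chrM, although 105, 113 and 93 chrM bases scored 10 or more in 2 or more libraries of those groups. On other chromosomes the lists hold 35.8% of such bases for STM2457, 49.9% for U87-R and 49.5% for U87. Nearly all listed sites lie inside a peak of their own group (98.6% for STM2457 and 99.9% for U87-R and U87), and of those chrM bases 3, 0 and 0 did.

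The 6 chrM peaks of the authors' deposited table for STM2457 are adjacent tiles that cover chrM:8442-8511 on the heavy-transcript strand (hg38), 70 bases at positions 77 to 146 of ATP8, upstream of its overlap with ATP6. That stretch holds the called bases 8448, 8450, 8451 and 8504. Their scores in that table, 1.04 to 1.13 against a median of 2.06 for its list, are among its lowest, with 0.280% to 2.11% of the list below each. The U87-R and U87 tables have 0 chrM peaks among 96528 and 95629.

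The deposited score is the smallest of 4 component scores, and on chrM a different one decided it than elsewhere. The component labelled E was smaller than that labelled CL at 73.0% and 79.5% of the chrM bases in the STM2457 libraries, 73.4% to 76.9% in U87-R and 70.6% to 78.3% in U87, while on other chromosomes this held for 13.6% to 17.9% in all 8. The median of component CL on chrM was 98.4 and 128 in the STM2457 libraries, 50.6 to 96.9 in U87-R and 42.8 to 77.6 in U87, against 8.02 to 9.03 elsewhere. The median of E was 30.5 and 29.4 in STM2457, 19.0 to 25.9 in U87-R and 21.4 to 23.7 in U87, against 48.7 to 52.4 elsewhere. The sources used here do not define the components, so scores on chrM and on other chromosomes may not be on a like footing.

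Copies of mitochondrial DNA in the nuclear genome can take reads of mitochondrial RNA, so mitochondrial values that share sequence with one are uncertain. The stretch at chr1:629062-634922, which holds copies of several mitochondrial genes, had 34 and 31 called bases in the STM2457 libraries, 24, 7 and 24 in U87-R and 17, 23 and 20 in U87. There, U87-R replicate 2 was the lowest library and both treated libraries lay above all others. Of the 54 bases called there in any library 41 could be placed on the chrM gene by their distance from the gene start, and 1 of these is a called chrM base. All 474 named copies together had 8 to 52 called bases per library. The part of the copies in the chrM results was not tested for any gene, COX2, COX3 and ATP8 included.

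Nuclear genes that serve mitochondrial RNA were called lower more often than higher, as were all genes tested (5.61% higher and 38.9% lower, with a median log2 change of -0.70). Of 16 tested genes for mitochondrial RNA processing, polyadenylation and decay, 1 was higher and 7 lower in STM2457 than in U87-R, with a median log2 change of -0.93. HSD17B10, a subunit of mitochondrial RNase P, was higher (0.73 ± 0.20, SE; limma adjusted p = 0.0174), and ANGEL2 (-2.69 ± 0.66) and MTPAP, the mitochondrial poly(A) polymerase (-2.40 ± 0.52), were lower (SE; limma adjusted p of 0.00928 and 0.00507). Of 22 tested genes for mitochondrial RNA modification, 1 was higher, TRMT1 (1.47 ± 0.31, SE; limma adjusted p = 0.00472), and 12 were lower. Those included NSUN2, a cytosine methyltransferase of RNA (-2.81 ± 0.30, SE; limma adjusted p = 0.000127), and GTPBP3, which modifies mitochondrial tRNAs (-3.08 ± 0.79, SE; limma adjusted p = 0.0114). The list's median was -0.96.

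Of 33 tested mitochondrial ribosome genes 3 were higher and 12 lower (median -0.23). MRPL2 (1.14 ± 0.41, SE; limma adjusted p = 0.0459) was among the higher and MRPL44 (-2.37 ± 0.26, SE; limma adjusted p = 0.00015) among the lower. Of 12 tested genes for mitochondrial transcription and replication 0 were higher and 2 lower (median -0.35), namely POLG, the mitochondrial DNA polymerase (-1.14 ± 0.23, SE; limma adjusted p = 0.00333), and MTERF3, which was listed at 0 in both STM2457 libraries and had sums of 61.3, 49.1 and 44.1 in U87-R (limma adjusted p = 0.000304). Of 14 tested genes of the m6A machinery 0 were higher and 10 lower (median -0.93), among them both demethylase genes. FTO was listed at 0 in both STM2457 libraries and had sums of 219, 107 and 167 in U87-R (limma adjusted p = 2.55e-05), and ALKBH5 was lower (-2.32 ± 0.26, SE; limma adjusted p = 0.000161). Between U87-R and U87, 1 gene of the 5 lists was called, the tRNA methyltransferase gene TRMT5, which was higher in U87-R (1.13 ± 0.21, SE; limma adjusted p = 0.0433).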

How the data were processed

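RNA from 8 m6A-eCLIP libraries was read as lists of called bases. STAR, cutadapt and UMI-tools on hg38 are named per the submitters' processing notes. The sources used here name no caller of bases or peaks. The deposited values are a score per base, for which depth is unknown, and, in the deposited lists of reproducible sites and peaks, a score and the fraction of libraries. Positions are 1-based.

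Mitochondrial genes came from a RefSeq table (GRCh38.p14) with the strand from common knowledge, and bases in 2 genes of their strand were given to neither. A nuclear gene was given the strand of 80% or more of the called bases that no other gene spans, if there were 5 or more. Scores were summed per gene, a base not listed counting as 0. In R 4.3.3, limma 3.58.1 with its trend option was fitted to log2(sum + 1) of 9863 genes and regions whose sum reached 10 in 2 or more libraries, and to log2(score + 1) of 188742 bases listed in 2 or more libraries of any group, with 3 group means over the 8 libraries, no scaling and Benjamini-Hochberg adjustment. The script was tested on simulated data. For values per library, two-sided exact permutation tests were used, whose smallest p is 0.1. The members, gene lists and tests were chosen with earlier results of these data known, and the 2 regions without a gene after the values were seen. Named bases were the 10 with the highest mean, up to 10 with the largest change per direction, the highest of each gene and known modified sites; nuclear genes up to 2 per list and direction. Other settings were another pseudocount, centring or scaling, no filter, scores of at least 10, the replicate block, each library left out, only the 2 groups compared, shared bases given to both genes, only protein-coding genes and, added after seeing the data, chrM without the light-strand bases of the control region. No sequence of chrM was used, so motifs were not analysed here and the called bases were not checked to be adenosines.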

Additional observations from a re-analysis of the deposited data

How the results depend on the processing

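Of the comparisons over libraries, the chrM share of all calls and the chrM sum kept their direction between STM2457 and U87-R under every setting tried. Leaving out 1 library at a time moved the difference in chrM bases between -5.5 and 25.5 for STM2457 against U87-R. For U87-R against U87 it moved between -1.17 and 29.8 bases, the difference in the sum of scores between -87.9 and 1081 and that in the light-strand share between -0.679 and 0.644 percentage points. The number of mitochondrial genes called between STM2457 and U87-R was 2, and it was 7 with libraries centred on their median, 7 with libraries scaled to their total, 1 with scores of at least 10, and 0 to 3 with 1 library left out, being 0 without STM2457 replicate 1 or 2. Single chrM bases called there numbered 34, and 120 after centring and 78 after scaling, where the calls over all bases also changed (36.3% and 9.57% higher, against 6.65%). Between U87-R and U87 they numbered 0, and 2 with a pseudocount of 0.1, 1 with scores of at least 10 and 0 to 7 with 1 library left out, 7 being without U87-R replicate 2. The cause of these shifts was not tested.

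Whether the replicate numbers pair the libraries was not settled. Across genes, deviations from the group mean correlated at r = 0.0965, 0.319 and 0.107 between same-numbered U87-R and U87 libraries. Of the 3 U87 libraries, 1 correlated best with its own number. Between STM2457 and U87-R the values were -0.0137 and -0.0139. With 2 STM2457 libraries the deviations mirror each other, so these values cannot decide on pairing. With the replicate block, 1 mitochondrial gene (COX3) and 28 single bases were called for STM2457 against U87-R, 0 and 0 for U87-R against U87, and the difference in chrM share was 0.0585 percentage points.

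Some log2 changes changed sign, none of which had passed the test. With centring and with scaling, these were ATP6 (-0.11 and -0.058), COX1 (-0.053 and -0.0027), ND4 (-0.062 and -0.012) and base 304 (-0.039 and -0.012) for U87-R against U87, and ATP8 (0.37 and 0.41) and the bases opposite ND6 (0.38 and 0.43) for STM2457 against U87-R, as well as base 287 with centring (1.71). With scores of at least 10 they were ATP8 for U87-R against U87 (0.0052) and COX1 for STM2457 against U87-R (-0.12). With 1 library left out, changes for U87-R against U87 ranged from -0.13 to 0.33 for ATP6, -0.065 to 0.078 for ATP8, -0.17 to 0.60 for COX1, -0.0077 to 1.17 for CYTB, -0.65 to 0.37 for ND1, -0.36 to 0.15 for ND2, -0.17 to 0.39 for ND4, -0.075 to 0.89 for ND5, -0.089 to 0.16 for the light strand of the control region and -0.14 to 0.022 for base 13710. For STM2457 against U87-R they ranged from -0.27 to 0.19 for ATP6, -0.16 to 0.68 for COX1, -0.14 to 0.41 for ND4, -0.46 to 0.11 for the bases opposite ND6, -2.09 to 0.29 for base 287, -0.011 to 0.34 for base 288 and -0.013 to 0.34 for base 8912. The lists give no read depth, so counting error is unknown, and with 2 treated libraries the exact test of a value per library could not go below p = 0.1.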
